A study of Mus musculus with 6 samples.

Results

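The genes that defend against ferroptosis and carry it out were followed in Hepa1-6 tumors of control and Sora-treated mice. The 9 genes Slc7a11, Gpx4, Aifm2, Lpcat3, Alox15, Dhodh, Gch1, Cisd1, and Vdac2 were chosen by exact symbol among the 26167 genes of the expression tables, and all 9 passed the filter on low counts. Ferroptosis is a form of cell death in which iron drives the peroxidation of polyunsaturated phospholipids in membranes. Cells hold it back with glutathione made from imported cystine, with the lipid peroxidase GPX4 that uses it, and with lipid-soluble antioxidants such as coenzyme Q and tetrahydrobiopterin that work in parallel. Sora (sorafenib), a kinase inhibitor used against HCC, is also known as an inhibitor of cystine import and an inducer of ferroptosis in cultured cells.

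Hepa1-6 (Hep1-6 in the sample labels) is a mouse hepatoma line, and its cells were injected under the skin of female C57BL/6J mice aged 6 to 8 weeks. Sora was given to the treated mice by intraperitoneal injection at 10 mg/kg, first on day 9, then on days 11 and 13, and last on day 15. What the control mice received and the day of tumor collection for RNA are not given in the sources used here. RNA was taken from whole tumors, 1 library each, from 3 control tumors (numbered 1, 3, and 4) and 3 Sora-treated tumors (2, 3, and 4), so tumor cells and host cells are mixed. In such bulk RNA, fewer cells of a type and less RNA per cell cannot be told apart. Total counts lay between 31073830 and 36205814 reads per tumor. The count table used here holds 5 of these libraries, and for the sixth, Sora-treated tumor 4, whole counts were recovered from the FPKM (read counts scaled for gene length and library total). The hepatoma genes Afp (655 to 1000.5 CPM) and Alb (1994 to 3511 CPM) were abundant in all 6 tumors, while Serpina1a, from the same list, was below 1 CPM in each.

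Slc7a11 was the 1 gene of the 9 that was up-regulated in Sora-treated tumors, by 1.43-fold, and none was down-regulated. The other 8 did not pass an adjusted p of 0.05 in edgeR's quasi-likelihood test. Over all 16513 genes tested, 3.29% passed (1.94% up-regulated and 1.34% down-regulated). The log2 fold changes of the 9 genes ran from -0.19 (Aifm2) to 0.51 (Slc7a11) with a median of -0.02, and 3 lay above 0 and 6 below, beside a median of -0.00037 over all genes tested. The control and Sora-treated values did not overlap for 3 of the 9 (Slc7a11, Gch1, and Aifm2), and they did not overlap for 22.2% of all genes tested. Levels are given as CPM, read counts brought to a common library total by TMM scaling, in the order control tumors 1, 3, 4 and Sora-treated tumors 2, 3, 4.

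**Figure D1:**
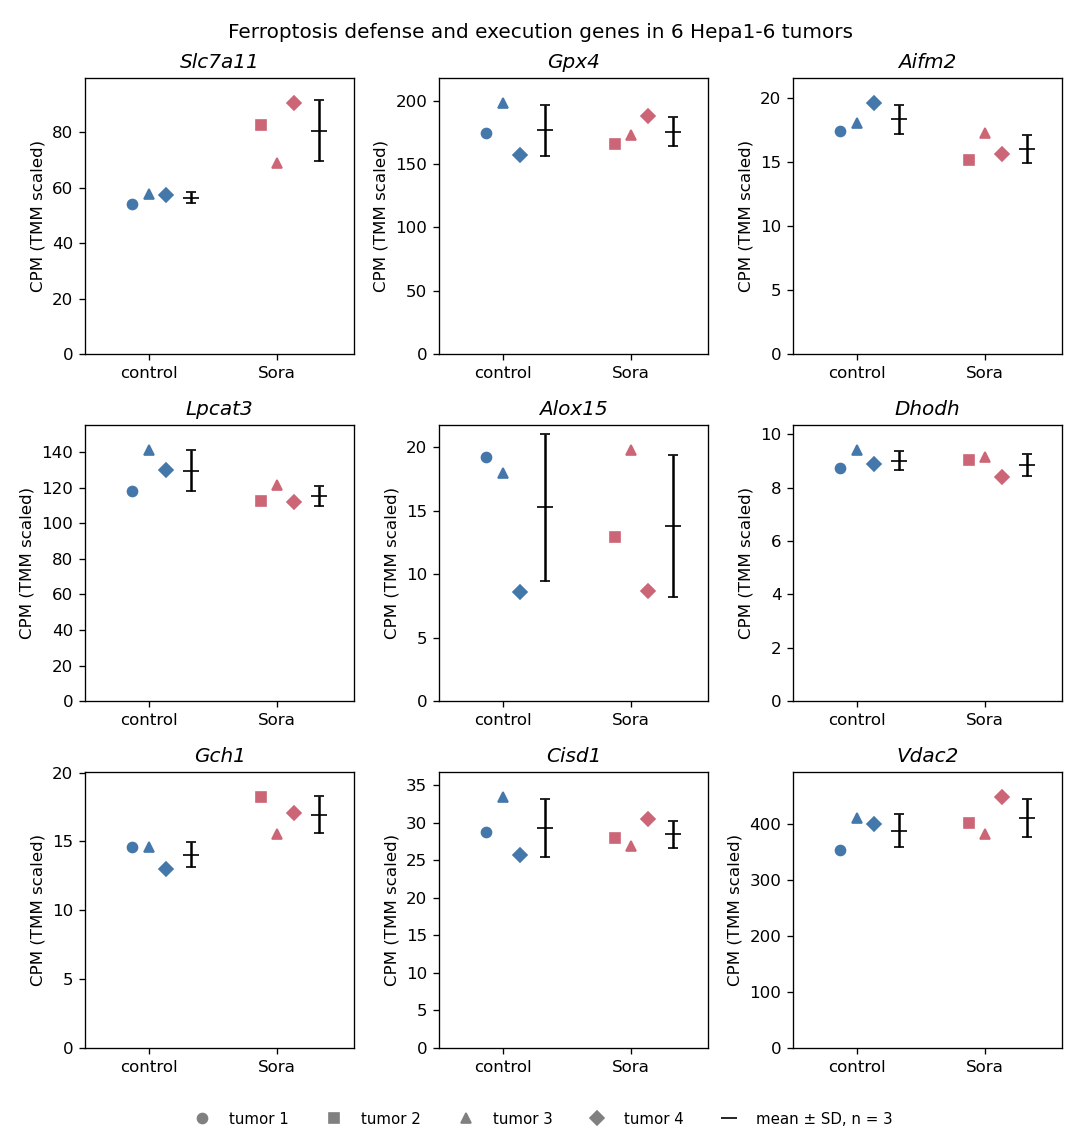
Level of each of the 9 ferroptosis genes in CPM (vertical axis, starting at 0, TMM scaled) in 3 control (blue) and 3 Sora-treated (red) tumors, 1 point per tumor with the shape giving the tumor number, and the bars giving mean ± SD. Slc7a11 shows the widest gap between groups (57.9 CPM in the highest control tumor against 68.8 CPM in the lowest Sora-treated tumor), and Alox15 spreads within both groups.

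Slc7a11 encodes the transport subunit of the antiporter that brings cystine into the cell in exchange for glutamate, and cystine supplies the cysteine of glutathione. It was measured at 54.0, 57.9, and 57.5 CPM in the control tumors and at 82.7, 68.8, and 90.4 CPM in the Sora-treated tumors. Every Sora-treated tumor lay above every control tumor, and the lowest of them was 18.8% above the highest control. The control tumors lay close together (56.5 ± 2.13 CPM, SD, n = 3) and the Sora-treated tumors were more spread (80.6 ± 10.9 CPM). The log2 fold change was 0.51 (SE 0.098, 95% interval from the same test 0.30 to 0.73, adjusted p = 0.0226 in edgeR). It stayed between 0.42 and 0.61 in the 16 alternative settings, and the call was lost without control tumor 1 (adjusted p = 0.0745), control tumor 4 (0.0682), Sora-treated tumor 2 (0.0841), or Sora-treated tumor 4 (0.118), again in edgeR. The 5 deposited count columns are the same tumors as those left without Sora-treated tumor 4. On them DESeq2 gave 0.42 with an adjusted p of 0.0129, so these 2 results differ by method only.

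**Figure D2:**
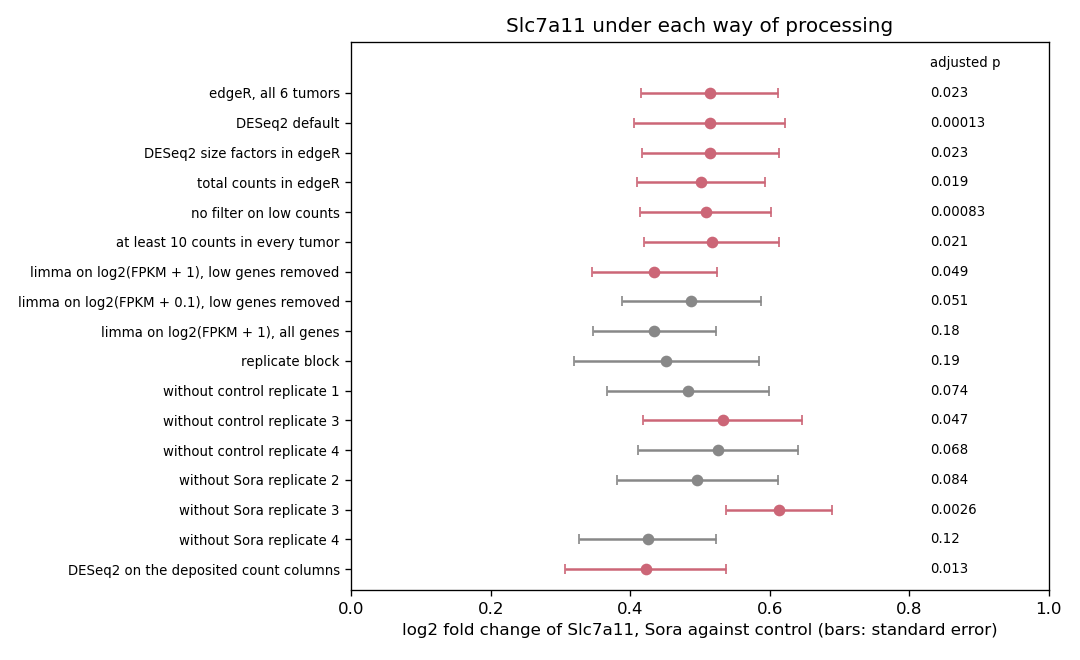
Log2 fold change of Slc7a11, Sora-treated minus control (horizontal axis), with bars of 1 SE, in the edgeR test of all 6 tumors and in 16 alternative settings (rows), where red points had an adjusted p under 0.05 and gray points had not. All estimates lie between 0.42 and 0.61, and 7 of the 16 alternatives did not reach the threshold.

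The promoter of Slc7a11 is shown with those of Chac1, the pathway gene nearest to it in pattern over the 6 tumors, and the stress regulator Atf3, since these 3 were the pathway genes whose promoter window held the motif TGATGNAA. This motif is the core of the response element bound by ATF4, a transcription factor of the amino acid response. Windows of 300 bases (250 before the start of transcription and 50 after) were taken from RefSeq on GRCm38.p6, and capitals mark each match to TGATGNAA on either strand. The windows are chr3:50443564-50443863 on the minus strand for Slc7a11, chr2:119350992-119351291 on the plus strand for Chac1, and chr1:191183284-191183583 on the minus strand for Atf3, each printed 5′ to 3′ along its gene.
Slc7a11: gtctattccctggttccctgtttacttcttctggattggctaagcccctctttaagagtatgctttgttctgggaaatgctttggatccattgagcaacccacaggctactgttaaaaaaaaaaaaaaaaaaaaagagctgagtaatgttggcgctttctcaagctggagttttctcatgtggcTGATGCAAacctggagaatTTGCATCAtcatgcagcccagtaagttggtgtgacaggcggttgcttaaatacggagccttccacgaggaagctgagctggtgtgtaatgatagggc
Chac1: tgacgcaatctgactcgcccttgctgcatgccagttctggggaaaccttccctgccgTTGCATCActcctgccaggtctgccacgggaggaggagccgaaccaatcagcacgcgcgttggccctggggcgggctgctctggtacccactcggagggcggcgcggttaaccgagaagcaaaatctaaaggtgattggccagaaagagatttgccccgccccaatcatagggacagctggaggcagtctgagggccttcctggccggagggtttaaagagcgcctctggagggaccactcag
Atf3: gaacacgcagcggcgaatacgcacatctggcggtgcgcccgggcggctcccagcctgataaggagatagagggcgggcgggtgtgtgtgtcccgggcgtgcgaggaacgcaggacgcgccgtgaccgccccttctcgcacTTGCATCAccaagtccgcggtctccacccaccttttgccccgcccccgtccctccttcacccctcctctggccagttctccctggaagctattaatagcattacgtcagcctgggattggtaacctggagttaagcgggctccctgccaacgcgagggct

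The Slc7a11 window held 2 matches, whose first bases lie at -66 (plus strand) and -47 (minus strand) from the start, so that they face each other. Chac1 had 1 match at -193 and Atf3 had 1 at -110, both on the minus strand. Of 32851 promoter windows, 3.97% held the motif and 0.0700% held it at least 2 times. Among the 81 ferroptosis pathway genes with a window, 6 of the 9 included, 3 held it (3.70%), near the share of all windows. The 3.70% is a share of genes, some of which have more than 1 window. A window was found for 6 of the 9 genes, and Alox15, Dhodh, and Vdac2 had none. None of the 6 held TGACNNNGC, the core of the antioxidant response element bound by NRF2, which 12.4% of all windows hold, and no match overlapped a GC box (GGGCGG, 35.7% of windows). A match of letters is a description and not a binding site.

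Of 9 other genes of cystine import and glutathione synthesis, 1 was down-regulated (Cbs) and none was up-regulated. Their log2 fold changes lay above 0 for 5 and below 0 for 4, with a median of 0.06. Cbs, whose enzyme makes cystathionine in the route from methionine to cysteine, fell from 4.70, 4.64, and 5.24 CPM to 1.95, 2.50, and 2.66 CPM without overlap (log2 fold change -1.03, SE 0.215, adjusted p = 0.0305 in edgeR). Chac1, which breaks down glutathione and is a target of ATF4, was at 1.53, 1.57, and 1.45 CPM in controls and at 2.05, 1.85, and 2.69 CPM after Sora, without overlap and without passing the test (0.53, SE 0.280, adjusted p = 0.370 in edgeR). In both Slc7a11 and Chac1, Sora-treated tumor 4 was highest and Sora-treated tumor 3 was the lowest of its group. Slc3a2, the partner chain of the antiporter, had overlapping groups (136 to 163 CPM in controls and 154 to 176 CPM after Sora, log2 fold change 0.15). Glutathione synthetase Gss was at 0.37 (adjusted p = 0.144 in edgeR). Of the subunits of glutamate-cysteine ligase, the modifier Gclm was at -0.31 (adjusted p = 0.146) and the catalytic Gclc at -0.01 (adjusted p = 0.959, both in edgeR).

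Gpx4 encodes the selenoenzyme that reduces phospholipid hydroperoxides at the expense of glutathione. Its selenocysteine is read from a TGA codon, which is shown with 12 bases on each side (capitals mark the codon, GRCm38 chr10:80054737-80054739, plus strand, coding exon, GENCODE M21), since the enzyme depends on the selenoprotein genes described next.
Gpx4: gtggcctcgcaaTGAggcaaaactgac

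Gpx4 was measured at 175, 198, and 157 CPM in controls and 166, 173, and 188 CPM after Sora. The Sora-treated tumors lay inside the range of the controls. The log2 fold change was -0.01 (SE 0.093, interval -0.21 to 0.20, adjusted p = 0.981 in edgeR). Of 7 genes for making selenoproteins, none passed the test in either direction and the median was 0.05. Lrp8, the receptor that takes up selenoprotein P, had the smallest p of them, at 27.8, 32.2, and 32.5 CPM in controls and 41.4, 31.04, and 37.5 CPM after Sora (0.25, adjusted p = 0.296 in edgeR).

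The GPX4-independent defenses are FSP1, DHODH, and tetrahydrobiopterin. Aifm2 encodes FSP1, which reduces coenzyme Q and vitamin K at membranes. Its levels were 17.4, 18.0, and 19.5 CPM in controls and 15.2, 17.3, and 15.6 CPM after Sora. The groups did not overlap, yet Sora-treated tumor 3 and control tumor 1 all but met (17.3 against 17.4 CPM), and the difference did not pass the test (-0.19, SE 0.101, interval -0.42 to 0.029, adjusted p = 0.367 in edgeR). None of 17 other genes of coenzyme Q synthesis, transport, and reduction passed in either direction, and their median was 0.00. Stard7, which moves coenzyme Q from mitochondria to the plasma membrane, had the smallest p of them (-0.11, adjusted p = 0.537 in edgeR).

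Dhodh encodes dihydroorotate dehydrogenase, the mitochondrial enzyme of pyrimidine synthesis that passes electrons to coenzyme Q. It was among the lower genes, at 8.72, 9.40, and 8.88 CPM in controls and 9.02, 9.14, and 8.39 CPM after Sora, with overlapping groups. The log2 fold change was -0.02 (SE 0.128, interval -0.31 to 0.26, adjusted p = 0.953 in edgeR). Neither of the 2 other enzymes of pyrimidine synthesis passed, with Cad at 0.09 and Umps at -0.13 (adjusted p = 0.654 and 0.439 in edgeR).

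Gch1 encodes GTP cyclohydrolase, the entry enzyme of tetrahydrobiopterin synthesis. It was at 14.6, 14.6, and 12.97 CPM in controls and at 18.2, 15.5, and 17.1 CPM after Sora, so the groups did not overlap and the lowest Sora-treated tumor was 6.60% above the highest control. The log2 fold change was 0.27 (SE 0.108, interval 0.034 to 0.51), with an unadjusted p of 0.0289 and an adjusted p of 0.217 in edgeR. It lay between 0.22 and 0.33 in the 16 alternatives and passed the threshold in none of them. Of 6 other genes of the pathway none passed, and Pts, the enzyme after GTP cyclohydrolase, had the smallest p (21.1 ± 1.35 CPM in controls and 17.7 ± 0.922 CPM after Sora, -0.25, adjusted p = 0.195 in edgeR).

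Lpcat3, Acsl4, and Mboat2 set which fatty acids enter phospholipids. Lpcat3 places polyunsaturated chains into lysophospholipids. It was at 118, 141, and 130 CPM in controls and at 112, 122, and 112 CPM after Sora, and Sora-treated tumor 3 lay above control tumor 1. The log2 fold change was -0.17 (SE 0.083, interval -0.35 to 0.014), and it did not pass (unadjusted p = 0.0671, adjusted p = 0.336 in edgeR). It was -0.10 without control tumor 3 and -0.23 without control tumor 1.

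Of 7 other genes that supply polyunsaturated lipids, 1 was down-regulated and the median was -0.04. Acsl4, which activates arachidonic and adrenic acid for the step that Lpcat3 completes, fell from 204, 183, and 184 CPM to 147, 150, and 153 CPM (-0.34, SE 0.073, adjusted p = 0.0330 in edgeR). The groups stood well apart, with 153 CPM the highest Sora-treated value. Of 6 genes listed for monounsaturated lipid defense against ferroptosis (Pla2g6 included), 1 was up-regulated and the median was 0.08. Mboat2, which places monounsaturated chains into phospholipids, rose from 14.9, 14.9, and 14.6 CPM to 21.2, 18.9, and 19.3 CPM without overlap (0.42, SE 0.095, adjusted p = 0.0407 in edgeR). Acsl3, which activates oleic acid, was at 147 to 221 CPM in controls and 203 to 269 CPM after Sora (0.41, adjusted p = 0.158 in edgeR).

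Alox15 encodes a lipoxygenase that oxidizes polyunsaturated lipids, and of the 9 genes it varied most from tumor to tumor. It was at 19.3, 17.9, and 8.61 CPM in controls and at 12.9, 19.7, and 8.63 CPM after Sora. Both tumors numbered 4 were low, and the groups overlapped over nearly their whole ranges. The means were 15.3 ± 5.80 and 13.8 ± 5.61 CPM (SD, n = 3 each), and the log2 fold change was -0.15 (SE 0.313, interval -0.84 to 0.54, adjusted p = 0.859 in edgeR). The counts behind these levels, 286 to 663 reads, were not few, and the SE was over that of the other 8 genes (0.083 to 0.128). The gene length in the tables is 15291 bases, 6.35 times the longest transcript of GENCODE M21, and the RefSeq gene overlaps the pseudogene Gm12312, so its level per length is uncertain.

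Alox15 is known from eosinophils and some macrophages in mice. The summed eosinophil markers were 22.6, 22.5, and 11.1 CPM in controls and 19.1, 28.0, and 14.0 CPM after Sora, which is lowest in tumor 4 of each group, as Alox15 was. This order is not particular to eosinophils, since the summed macrophage markers (1976, 2157, and 1800 CPM in controls and 1571, 1763, and 1504 CPM after Sora) and the monocyte and B cell sums were also lowest in both tumors numbered 4. Of the 6 eosinophil markers none passed the test and 3 of 5 tested lay above 0. The granule gene Epx was at 0 in 5 of 6 tumors, Prg2 reached at most 1.94 CPM, and most of the sum came from Ccr3 (5.13 to 15.3 CPM) and Siglecf (4.86 to 8.91 CPM). The part of these cell types in the spread of Alox15 was not tested. Of 9 other lipid oxidation genes tested, none passed, 8 lay above 0, and the median was 0.20. Pebp1, a partner of lipoxygenases in lipid peroxidation, had the smallest p (194 ± 12.8 and 222 ± 15.1 CPM, 0.20, adjusted p = 0.228 in edgeR).

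**Figure D3:**
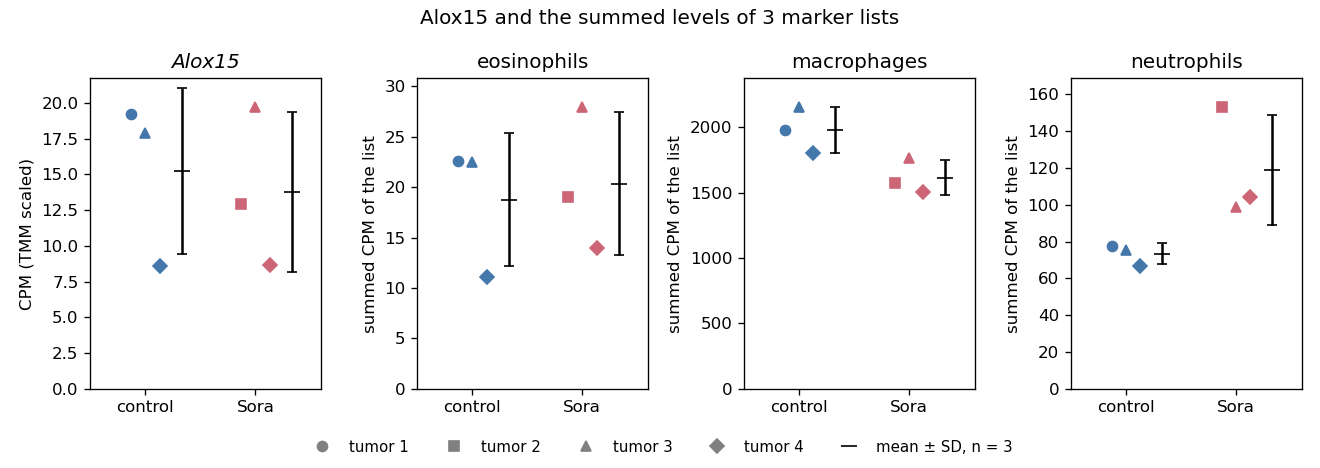
Level of Alox15 in CPM and summed CPM of the eosinophil, macrophage, and neutrophil marker lists (vertical axes, starting at 0) in 3 control (blue) and 3 Sora-treated (red) tumors, with shapes for tumor numbers and bars for mean ± SD. Alox15 and the eosinophil and macrophage sums are each lowest in tumor 4 of each group. The macrophage sums after Sora (1504 to 1763) lie below and the neutrophil sums (98.9 to 153) above those of the controls (1800 to 2157 and 66.8 to 77.7).

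Cisd1 and Vdac2 encode proteins of the outer mitochondrial membrane. Cisd1 (mitoNEET) carries an iron-sulfur cluster and limits iron uptake by mitochondria. It was at 28.8, 33.4, and 25.7 CPM in controls and 28.0, 26.9, and 30.5 CPM after Sora, inside the range of the controls (-0.04, SE 0.106, interval -0.28 to 0.19, adjusted p = 0.886 in edgeR). Vdac2, a voltage-dependent anion channel that binds the ferroptosis inducer erastin, was the most abundant of the 9 at 354, 411, and 399 CPM in controls and 402, 381, and 447 CPM after Sora. Its groups overlapped (0.08, SE 0.089, interval -0.11 to 0.28, adjusted p = 0.707 in edgeR), and the value was 0.015 without Sora-treated tumor 4 and 0.019 without control tumor 1. None of the 7 other genes of this group passed and the median was -0.04, with Vdac1 at 0.11 and Vdac3 at -0.03. Slc25a39, which carries glutathione into mitochondria, had the smallest p (120 ± 1.45 and 105 ± 4.76 CPM, -0.20, adjusted p = 0.164 in edgeR).

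Of 15 genes of iron handling, 1 was down-regulated and none was up-regulated, with 10 below 0 and a median of -0.11. Slc40a1 (ferroportin), the iron exporter, fell from 77.4, 64.5, and 84.9 CPM to 51.4, 61.6, and 51.6 CPM (-0.46, SE 0.110, adjusted p = 0.0471 in edgeR). The groups did not overlap, but Sora-treated tumor 3 came near control tumor 3. The ferritin heavy chain Fth1, the iron store, was at 2013 to 2145 CPM in controls and 1558 to 1869 CPM after Sora (-0.26, adjusted p = 0.184 in edgeR). None of 10 regulators and reporters of ferroptosis passed and their median was 0.03. Sat1, a polyamine acetyltransferase, had the smallest p of them (-0.32, adjusted p = 0.0948 in edgeR). Atf4 was at 167, 195, and 169 CPM in controls and 211, 188, and 233 CPM after Sora (0.25, adjusted p = 0.194), Atf3 had a log2 fold change of 0.01 (adjusted p = 0.978), and Ptgs2, a common reporter of ferroptosis, one of 0.45 (adjusted p = 0.278), all in edgeR.

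Over the 11 groups, 95 of the 96 pathway genes other than the 9 were tested (Alox8 was not). Of these, 1 was up-regulated (Mboat2) and 3 were down-regulated (Cbs, Acsl4, and Slc40a1), the median was 0.01, and the values did not overlap for 17. Both counts are near the background of all genes tested, of which 3.29% were called and 22.2% did not overlap. In edgeR, none of these 4 genes was called without control tumor 1, without Sora-treated tumor 2, or without Sora-treated tumor 4, and Slc40a1 was the one called without control tumor 3. Without control tumor 4 none of the 4 was called, and without Sora-treated tumor 3 all 4 were. The highest adjusted p on leaving out 1 tumor was 0.123 for Cbs, 0.129 for Acsl4, and 0.167 for Mboat2 (each without Sora-treated tumor 2), and 0.209 for Slc40a1 (without Sora-treated tumor 4), in edgeR. Over the 16 alternatives the call was lost in 7 for Cbs, 9 for Acsl4, 11 for Mboat2, and 10 for Slc40a1, with no change of direction. With limma on log2(FPKM + 1), where the pseudocount is near the level of these low genes, the log2 fold change was 0.21 for Mboat2 and -0.58 for Cbs.

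**Figure D4:**
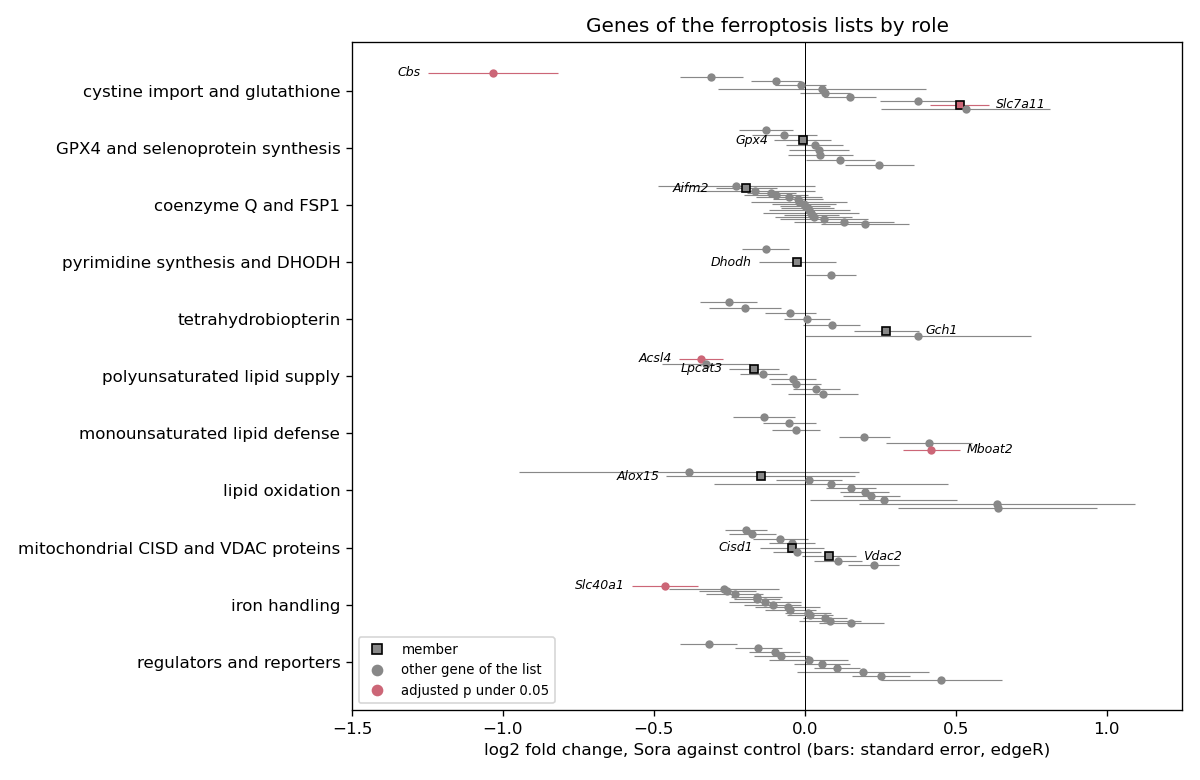
Log2 fold change, Sora-treated minus control, of the tested genes of 11 ferroptosis gene groups (1 point per gene, 1 row per group), with bars of 1 SE, squares for the 9 chosen genes, and red for an adjusted p under 0.05 in edgeR. The 5 red points are Slc7a11 at 0.51, Mboat2 at 0.42, Acsl4 at -0.34, Slc40a1 at -0.46, and Cbs at -1.03, and some gray points with wide bars lie as far from 0.

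Because the tumors are mixed, markers of other cells were read beside these genes. All 9 macrophage markers lay below 0 (Mertk called, -0.45, adjusted p = 0.0310 in edgeR), and their summed level was 1800 to 2157 CPM in controls and 1504 to 1763 CPM after Sora. All 5 tested neutrophil markers lay above 0 (S100a9 called, 1.21, adjusted p = 0.0424 in edgeR). Among hepatoma genes Alb fell (-0.55, adjusted p = 0.0410) and Apoa1 rose (1.03, adjusted p = 0.0470, both in edgeR), with 4 of 7 tested genes above 0. The summed hepatoma level, which Alb leads, was 4878 to 6449 CPM in controls and 4808 to 5091 CPM after Sora, while the mean of log2(CPM + 1) over the list went the other way, from 6.65 to 6.82, without overlap. This difference of 0.17 was 0.072 without control tumor 1 and 0.50 with the median of the list in place of the mean. In the remaining lists, T cell markers had 6 of 6 below 0 (Cd8b1 called), red blood cell markers 5 of 5 below 0 (Hba-a1 called), fibroblast markers 5 of 6 below 0, monocyte and B cell markers 4 of 4 each below 0, endothelial markers 3 of 6 above 0, and keratinocyte, skeletal muscle, and adipocyte markers 6 of 6, 6 of 6, and 4 of 4 above 0. Eosinophil markers had 3 of 5 tested above 0, with a median of 0.24. In edgeR, Cd8b1 had a log2 fold change of -0.56 (adjusted p = 0.0179) and Hba-a1 one of -1.17 (adjusted p = 0.0305). The genes with the smallest p in the lists without a call were Ly6c2 of monocytes (-0.51), Il5ra of eosinophils (-0.63), Cd79a of B cells (-0.96), Pecam1 of endothelial cells (-0.23), Col1a2 of fibroblasts (-0.47), Lor of keratinocytes (0.42), Actn3 of skeletal muscle (0.48), and Cfd of adipocytes (0.75). The mean of log2(CPM + 1) over a list did not overlap between groups for 5 of the 13 lists, higher after Sora for hepatoma cells and neutrophils and lower for macrophages, T cells, and fibroblasts. The two-sided exact permutation test over 20 labelings gave p = 0.1 for each of the 5, the smallest p it can give, so that no list could pass 0.05. The part of these cell types in the changes of Slc7a11, Acsl4, Mboat2, Cbs, and Slc40a1 was not tested.

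Per length, with the gene lengths of the tables, the 9 genes were ordered in the same way in both groups. Mean FPKM in controls was 234 ± 13.3 for Vdac2, 151 ± 14.95 for Gpx4, 60.5 ± 3.89 for Lpcat3, and 30.4 ± 3.50 for Cisd1 (SD, n = 3). The other 5 genes were much lower, with 6.04 ± 0.13025 for Slc7a11, 5.08 ± 0.346 for Gch1, 3.85 ± 0.0548 for Dhodh, 3.27 ± 0.206 for Aifm2, and 1.002 ± 0.383 for Alox15. After Sora, Slc7a11 stood at 8.54 ± 1.01 and Gch1 at 6.08 ± 0.486 FPKM. Within each group no 2 neighbors in this order had overlapping ranges, but the order of these 5 rests on the lengths used. Divided instead by the longest GENCODE M21 transcript, control means were 6.36 for Alox15, 6.14 for Slc7a11, 5.95 for Aifm2, 4.02 for Gch1, and 2.37 for Dhodh, and the 4 genes above them kept their order. The GPX4 transcript was far above those of the parallel defenses FSP1, DHODH, and GTP cyclohydrolase with either length.

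The pathway gene most like each of the 9 was the one, out of 95, with the smallest root mean square difference of centered log2(CPM + 1) over the 6 tumors. This was Chac1 for Slc7a11 (0.104), Alox5 for Alox15 (0.308), and Cisd3 for Gch1 (0.0556). It was Nedd4l for Aifm2 (0.0309), Scd2 for Lpcat3 (0.0662), and Por for Vdac2 (0.0411). Gpx4 and Cisd1 shared the same nearest gene, Coq9 (0.0344 and 0.0353), and all 3 were highest in control tumor 3 and lowest in control tumor 4. For Dhodh the nearest was Coq8b (0.0519), a difference above the spread of Dhodh itself (0.0463), so that this likeness is that of 2 genes that hardly varied.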

How the data were processed

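RNA was sequenced from 3 control and 3 Sora-treated tumors. The authors deposited raw counts of reads per gene (5 tumors in the table used here) and FPKM (all 6 tumors), and the FPKM equal the counts divided by 1 length per gene and by the total count. The paper names Bowtie2, GRCm38, and an expectation maximization step for FPKM, whereas the submitters' processing notes list fastp, HISAT2, HTSeq, R 3.2.0, DESeq2, and GRCm39, so the build is uncertain. The tables hold no coordinates, and those given here are from RefSeq GRCm38.p6 and GENCODE M21. Whether strand was used is not given in the sources used here, so overlapping genes are uncertain (Aifm2 with Macroh2a2, Lpcat3 with Emg1, Vdac2 with Comtd1, Gch1 with Gm18811, and Alox15 with Gm12312).

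For Sora-treated tumor 4, whole counts were obtained by multiplying FPKM by gene length and total, and 100% of values fell within 0.001 of a whole number. The same step, run on the remaining 5 tumors, differed from the deposited counts for 0 genes. For 342 genes (512 reads) no length was known, and they were set to 0. The 16513 genes that reached 10 counts in 3 or more tumors were tested with edgeR 4.0.16 (TMM, quasi-likelihood, robust=FALSE, R 4.3.3, group only) with Benjamini-Hochberg adjustment at 0.05. The biological coefficient of variation was 0.132. DESeq2 1.42.0 and limma 3.58.1 on log2(FPKM + 1) and log2(FPKM + 0.1) were alternatives, beside other scalings and filters, a block for the tumor number, and leaving out each tumor. DESeq2 on the deposited count columns and levels per longest GENCODE transcript were added after seeing the data. The scripts were tested on simulated data.

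The 9 genes, the 11 pathway lists, and the 13 marker lists were chosen with earlier results of these data known. The genes named were the 9, pathway genes with an adjusted p under 0.05, the gene with the smallest p in each list, and the pathway gene nearest in pattern to each of the 9; other genes named in the pathway groups, and the promoters printed, were chosen after their values were seen. The labels number the tumors but do not say more of their origin, so p-values measure the spread between these tumors.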

Additional observations from a re-analysis of the deposited data

How the results depend on the processing

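Of the 9 genes, 1 was called in 6 tumors, and 0 were called with limma on log2(FPKM + 0.1), with limma on log2(FPKM + 1) of all genes, or with the replicate block, while leaving out 1 tumor gave 0 to 1. Limma on log2(FPKM + 1) of all genes called 0 of 25616 genes (3115 had an unadjusted p under 0.05), so its 0 says nothing of these 9. Where a gene of the 9 was called, it was Slc7a11. Up-regulated pathway genes numbered 1, but 2 in DESeq2 and 3 with no filter, and 0 with total counts, in the 3 limma fits, with the replicate block, and in DESeq2 on the deposited columns, with 0 to 3 on leaving out 1 tumor. Down-regulated pathway genes numbered 3, but 5 in DESeq2, 1 in both limma fits of filtered FPKM, 0 in limma on all genes and with the replicate block, and 0 to 4 on leaving out 1 tumor. Over all genes, 321 were called up-regulated and 222 down-regulated, but 4 and 1 when Sora-treated tumor 4 was left out, 574 and 571 when Sora-treated tumor 3 was, and 80 and 45 with the replicate block. DESeq2 called 619 and 575 in 6 tumors and 263 and 215 on the 5 deposited columns, the same tumors as without Sora-treated tumor 4.

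The tumor numbers 3 and 4 are in both groups, and the test used group only. The deviations of same-numbered tumors from their group means correlated at -0.0646 and -0.0651. With 3 tumors per group, these values cannot decide whether same-numbered tumors belong together. With the replicate block Slc7a11 had a log2 fold change of 0.45 (adjusted p = 0.192 in edgeR). The numbers 1 and 2 occur in only 1 group each, so this fit compares the groups through the tumors numbered 3 and 4 alone. The counts of calls with the replicate block rest on these fewer tumors too.

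Log2 fold changes near 0 changed sign in some settings. Leaving out 1 tumor gave -0.085 to 0.083 for Gpx4, -0.50 to 0.10 for Alox15, -0.050 to 0.014 for Dhodh, and -0.13 to 0.064 for Cisd1. With the replicate block Gpx4 was at 0.033 and Alox15 at 0.075. In DESeq2 on the deposited columns Alox15 was at 0.096 and Dhodh at 0.011. The eosinophil score ranged from -0.15 to 0.18 and the endothelial score from -0.20 to 0.056 on leaving out 1 tumor, and the latter was 0.060 as a median. Slc7a11, Aifm2, Lpcat3, Gch1, Vdac2, Cbs, Acsl4, Mboat2, and Slc40a1 kept their direction in all 16 alternatives. The cause of these changes was not tested.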
